A study of Mus musculus with 6 samples.

Results

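Aminoacyl-tRNA synthetases are the enzymes that load each tRNA with its amino acid, and their transcripts were followed here in mouse cerebellum. The 40 genes were taken from a list of names, out of 46983 genes counted, and the list was chosen with earlier results of these libraries known. They comprise 21 cytosolic synthetases, 16 mitochondrial synthetases and 3 scaffold genes (Aimp1, Aimp2, Eef1e1). A symbol that ends in the digit 2 marks a mitochondrial enzyme, apart from Aimp2, and Tarsl2 was placed with the cytosolic enzymes. Gars and Kars each encode both the cytosolic and the mitochondrial form of their enzyme. All 40 passed the filter on low counts and were tested.

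The series holds RNA-seq libraries from the cerebellum of 6 C57BL/6J mice at postnatal day 60, with 3 animals in each group. The WT animals were Tie2-Cre Slc7a5 fl/+, and the Slc7a5-KO animals were Tie2-Cre Slc7a5 fl/fl, so all 6 carried the Cre and at least 1 floxed allele. Tie2 drives Cre in endothelial and blood lineages, which are a small share of the cells of this tissue, while the libraries hold RNA of all its cells. Slc7a5 encodes LAT1, which carries large neutral amino acids across the blood-brain barrier.

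A synthetase joins its amino acid to the matching tRNA with energy from ATP. When an amino acid is short, uncharged tRNA gathers and activates the kinase GCN2, which raises translation of the transcription factor ATF4. ATF4 binds composite elements near its target genes, and many cytosolic synthetases are commonly listed among those targets. In the cytosol, several synthetases sit with the scaffold proteins in the multisynthetase complex. LAT1 carries leucine, isoleucine, valine, phenylalanine, tyrosine, tryptophan, methionine and histidine, so the synthetases of these amino acids were set apart from the others.

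Reads assigned to genes numbered 13438182 to 34160856 per library, with Slc7a5-KO replicate 3 the shallowest. The least covered member still had 45 reads in its lowest library. Slc7a5 itself stood at 72.0, 66.3 and 43.2 CPM (reads per 1000000 gene reads, scaled between libraries) in WT replicates 1 to 3, and in the libraries labelled Slc7a5-KO it stood at 164, 59.4 and 118 CPM. The targeted transcript was thus not lower in those libraries, with a log2 fold change of 0.91 ± 0.42 (standard error, edgeR adjusted p = 0.84). The sources used here do not state which exons the floxed allele loses, and counts summed over the gene cannot show it, so every direction below rests on the labels. By the level of Xist alone, there were 1 female and 2 males among the WT animals, and 2 females and 1 male among the others. Markers of cerebellar cells were present in every library, none of the 10 Purkinje and 10 granule neuron markers being at 0.

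Of the 12 cytosolic synthetases commonly listed as ATF4 targets, 8 could be searched near their start for the core of the composite ATF4 element, and 5 carried it. The sequences of these 5 are shown because 4 of them (Aars, Gars, Iars and Yars) are among the 8 members called higher in the authors' deposited table. The core searched was TGATGNAA, on both strands, with no other motif, in windows of 300 bases from RefSeq on GRCm38.p6, running from 250 bases before a gene's start to 50 after it. Windows were found for 31 of the 40 genes. A match occurred in 5 of the 8 ATF4-listed synthetases with a window (Aars, Gars, Iars, Tars and Yars) and in 0 of the other 23 members with one. Of all 32851 windows, 3.97% held a match. Capitals mark the match on the gene's own strand, so TTTCATCA or TTGCATCA is the core read from the opposite strand. Each line is written 5′ to 3′, 30 bases about the match, with 150 bases before the start for Gars.
Gars: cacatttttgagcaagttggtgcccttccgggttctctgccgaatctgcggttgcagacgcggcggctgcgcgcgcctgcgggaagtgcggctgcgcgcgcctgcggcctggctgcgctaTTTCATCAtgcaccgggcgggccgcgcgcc
Aars: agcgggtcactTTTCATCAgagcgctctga
Iars: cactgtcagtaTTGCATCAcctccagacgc
Tars: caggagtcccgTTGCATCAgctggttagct
Yars: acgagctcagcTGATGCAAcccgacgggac

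Counting the start base as 0, the Gars match lay at -30 to -23 (printed region chr6:55037851-55038000, plus strand) and the Tars match at -15 to -8 (chr15:11399655-11399684, minus strand). The Aars match printed lay at 9 to 16 (chr8:111033840-111033869, plus strand). The Iars match lay at 7 to 14 (chr13:49682126-49682155, plus strand) and the Yars match at 3 to 10 (chr4:129189895-129189924, plus strand). By GENCODE M21 the Gars match lay outside annotated exons, and the 30-base stretches of Aars, Iars, Tars and Yars touched an annotated exon on the same strand. The Tars match itself lay just before the annotated start of Tars (11399665), and only the bases after it reached into the gene. A match is a description of these letters and no evidence of binding. For Eprs, Mars and Sars the window held no match, and Cars, Lars, Nars and Wars had no window in the table.

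In WT cerebellum the cytosolic enzymes were the more abundant class. Per length of transcript, the median level was 16.5 CPM per kb for the cytosolic synthetases and 4.03 CPM per kb for the mitochondrial ones. Among the cytosolic genes the level ran from 7.36 CPM per kb for Lars, the leucine enzyme, to 72.9 CPM per kb for Sars, the serine enzyme. Nars (63.2 CPM per kb), Wars (53.2 CPM per kb) and Gars (51.8 CPM per kb) followed Sars, and the values of Wars and Gars overlapped between animals. Lars2 was the exception among the mitochondrial genes at 73.8 CPM per kb, a level that overlapped that of Sars, while the other 15 ran from 1.43 CPM per kb for Pars2 to 7.52 CPM per kb for Tars2. The enzymes of the LAT1 amino acids were spread over this whole range, with Lars, Vars (8.17 CPM per kb) and Iars (9.59 CPM per kb) among the lowest of the cytosolic class and Wars and Farsb (46.6 CPM per kb) among the highest.

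**Figure D1:**
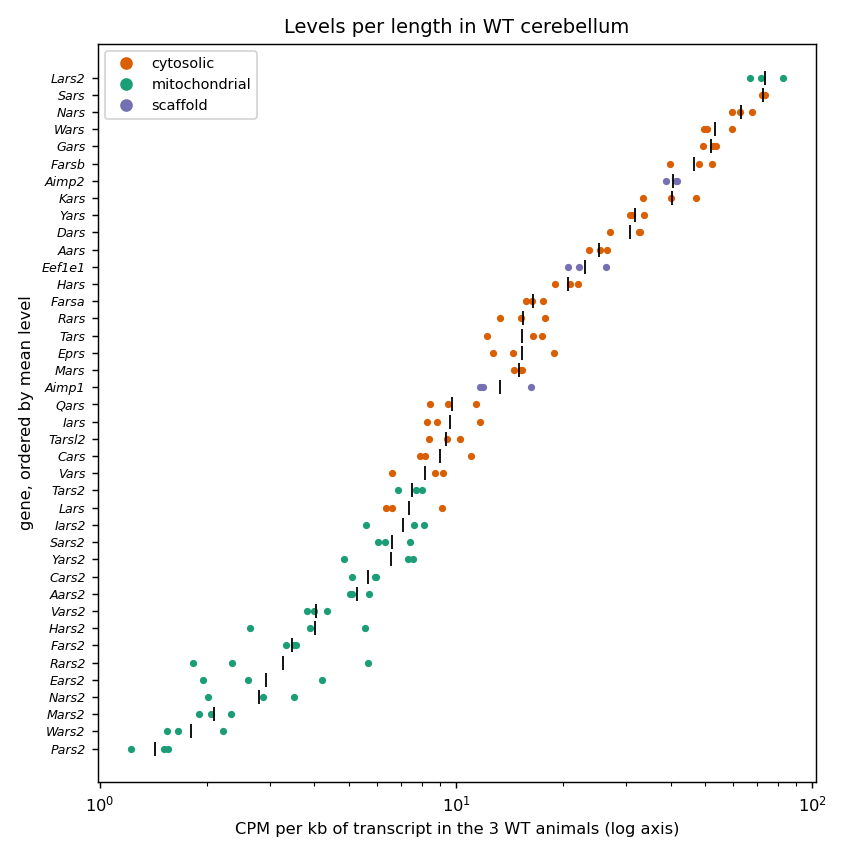
Level of each gene in CPM per kb of transcript (log axis) in the 3 WT animals, coloured points for animals by class and black ticks for their mean. Mitochondrial genes fill the lower end from 1.43 CPM per kb upwards, except Lars2 at 73.8 CPM per kb.

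Cytosolic synthetases stood higher in the libraries labelled Slc7a5-KO, with a median log2 fold change of 0.27 over the 21 genes against 0.0022 over all 16851 genes tested. 18 of the 21 were above 0. No member of the 40 passed a false discovery rate of 0.05 by edgeR, where 0.0475% of all genes passed as higher and 0% as lower. At an unadjusted edgeR p under 0.05, 10 of the 40 were higher, where 3.45% of all genes were, and 1 was lower, where 2.77% were. The 10 were Cars, Iars, Mars, Gars, Yars, Aars, Sars, Nars, Wars and the mitochondrial Cars2, and the lower one was Dars. DESeq2, an alternative test, called 6 members higher (Cars, Gars, Mars, Yars, Aars and Sars), where it called 0.294% of genes higher and 0.0442% lower, and limma-voom called Cars, where it called 0.0593%. In the authors' deposited table, 8 members had an adjusted p under 0.05, all higher: the 6 named and Iars and Nars. That table listed 0.625% of genes as higher and 0.275% as lower at this threshold. Without any model, 13 of the 40 had all 3 animals of one group above all 3 of the other, each time the libraries labelled Slc7a5-KO, where 5.93% of all genes did so and 5.54% did the opposite. These calls come from the same 6 libraries, so they are not independent of each other. The 40 genes were chosen with earlier results of these libraries known, so the counts describe these data and are no independent evidence.

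**Figure D2:**
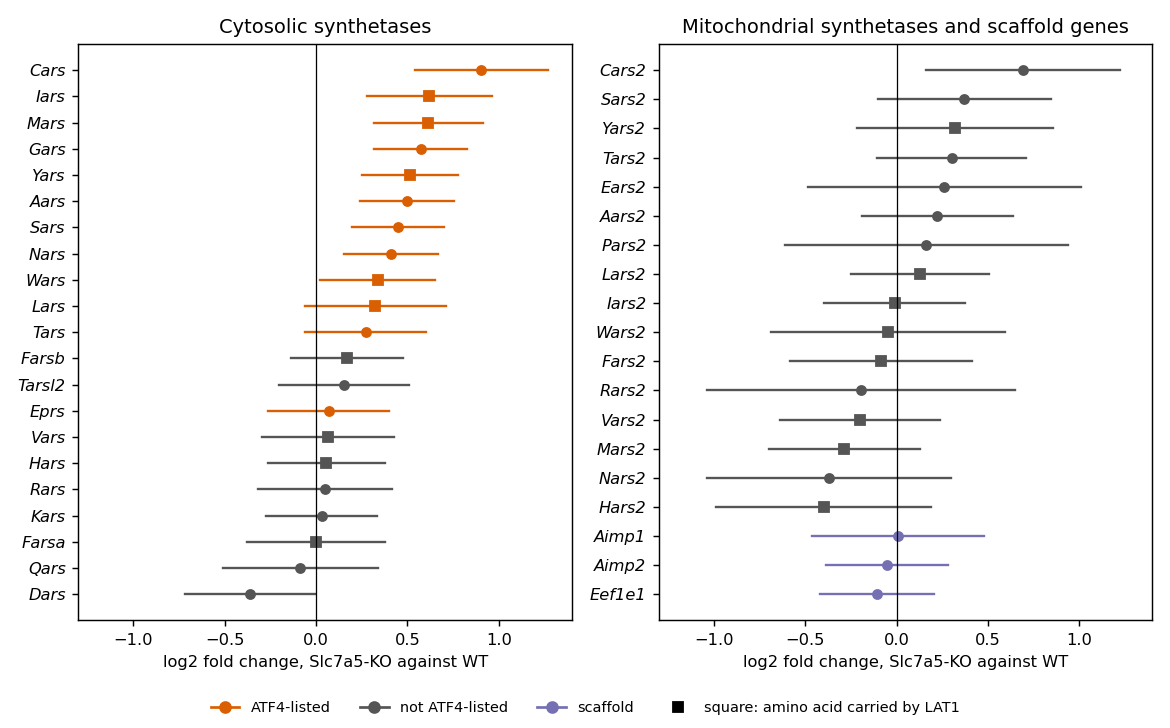
Log2 fold change of each gene, Slc7a5-KO against WT, with its 95% interval from edgeR, for 21 cytosolic synthetases (left) and 16 mitochondrial synthetases with 3 scaffold genes (right). Orange marks ATF4-listed genes, which hold the upper 11 places of the cytosolic panel, and squares mark amino acids that LAT1 carries.

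Cars, which charges tRNA with cysteine, had the largest log2 fold change of the 40. Its level was 35.4, 26.4 and 25.4 CPM in WT replicates 1 to 3, against 61.9, 48.4 and 53.0 CPM under the Slc7a5-KO label. The groups did not overlap, and WT replicate 1 stood apart from the other WT animals. The log2 fold change was 0.90 ± 0.17 (95% interval 0.54 to 1.27), or 1.87-fold, with an edgeR adjusted p of 0.070. Without Slc7a5-KO replicate 2 that adjusted p was 0.041, and without WT replicate 3 it was 0.67. In the authors' deposited table the unshrunken log2 fold change of Cars was 0.90, with an adjusted p of 4.9e-05.

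Gars, the glycine enzyme of both compartments, was at 128, 125 and 117 CPM in WT against 192, 174 and 183 CPM under the Slc7a5-KO label. The values within each group lay close together and the groups did not overlap. Its log2 fold change was 0.57 ± 0.12 (edgeR adjusted p = 0.16), with a range of 0.53 to 0.60 on leaving out each library in turn. Kars, the lysine enzyme that also serves both compartments, had 0.03 ± 0.14 (95% interval -0.27 to 0.33).

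Aars, the alanine enzyme, had 146, 152 and 136 CPM in WT, against 217, 209 and 186 CPM under the Slc7a5-KO label. Sars, the serine enzyme, had 137, 136 and 135 CPM against 181, 197 and 179 CPM. Nars, the asparagine enzyme, had 186, 163 and 171 CPM against 253, 223 and 215 CPM. All 3 genes separated the groups without overlap. Their log2 fold changes were 0.50 ± 0.12 for Aars, 0.45 ± 0.12 for Sars and 0.41 ± 0.12 for Nars, with edgeR adjusted p of 0.29, 0.35 and 0.52. In the authors' deposited table their adjusted p was 0.0028, 0.0041 and 0.031. For Aars, 14.3% of annotated exon bases are shared with another gene on the same strand, which can lower its count in all libraries.

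Of the 8 genes called in the authors' deposited table, positions are given for 7, which lie on separate chromosomes of GRCm38 and are protein-coding. Cars (ENSMUSG00000010755.16) lies on chromosome 7 (143557230 to 143600090, minus strand) and Gars (ENSMUSG00000029777.10) on 6 (55038007 to 55079500, plus strand). Mars (ENSMUSG00000040354.14) lies on 10 (127296221 to 127311786, minus strand) and Iars (ENSMUSG00000037851.13) on 13 (49682100 to 49734267, plus strand). Yars (ENSMUSG00000028811.11) lies on 4 (129189760 to 129219607, plus strand), Aars (ENSMUSG00000031960.14) on 8 (111033144 to 111057664, plus strand) and Sars (ENSMUSG00000068739.13) on 3 (108424865 to 108445209, minus strand).

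Among enzymes of amino acids that LAT1 carries, those for isoleucine, methionine and tyrosine separated the groups and those for valine, phenylalanine and histidine did not. Iars, the isoleucine enzyme, had 51.7, 39.0 and 36.6 CPM in WT, against 61.9, 60.2 and 73.8 CPM under the Slc7a5-KO label. Mars, the methionine enzyme, had 43.0, 45.3 and 45.0 CPM against 74.6, 63.3 and 66.2 CPM. Every Mars value labelled Slc7a5-KO lay well above the narrow WT range, while the lowest Iars value labelled Slc7a5-KO lay nearer the highest WT value. The log2 fold change was 0.62 ± 0.16 for Iars (edgeR adjusted p = 0.31) and 0.61 ± 0.14 for Mars (edgeR adjusted p = 0.21). In the authors' deposited table their adjusted p was 0.016 and 0.00066.

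Yars, the tyrosine enzyme, had 89.5, 90.5 and 97.7 CPM in WT, against 137, 135 and 124 CPM under the Slc7a5-KO label. Its log2 fold change was 0.51 ± 0.13 (edgeR adjusted p = 0.29, and 0.0015 in the authors' deposited table), and leaving out any 1 library gave 0.48 to 0.56. Wars, the tryptophan enzyme, had 108, 90.4 and 92.0 CPM against 104, 151 and 113 CPM. The Wars groups overlapped, since WT replicate 1 lay above Slc7a5-KO replicate 1, and Slc7a5-KO replicate 2 was the high value. Its log2 fold change of 0.34 ± 0.15 (edgeR adjusted p = 0.76) was 0.16 without that library.

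Lars charges tRNA with leucine, the LAT1 substrate best known as a signal to the growth kinase mTORC1. It had 25.3, 36.3 and 26.2 CPM in WT, against 40.8, 37.4 and 31.8 CPM under the Slc7a5-KO label. WT replicate 2 overlapped the other group, and the log2 fold change was 0.33 ± 0.18 (95% interval -0.06 to 0.71, edgeR adjusted p = 0.85). Leaving out 1 library gave 0.23 to 0.51, the latter without WT replicate 2.

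Vars, the valine enzyme, had 35.4, 26.7 and 37.1 CPM against 34.4, 35.5 and 34.0 CPM. Hars, the histidine enzyme, had 43.7, 37.7 and 41.4 CPM against 40.9, 44.8 and 42.0 CPM. For both genes the groups overlapped throughout, with log2 fold changes of 0.07 ± 0.17 (95% interval -0.29 to 0.43) and 0.06 ± 0.15 (95% interval -0.26 to 0.38). The phenylalanine enzyme is built from 2 kinds of subunit. Farsa, the alpha subunit, had 31.9, 29.8 and 28.6 CPM against 33.0, 24.3 and 33.0 CPM, and a log2 fold change of -0.0011 ± 0.18 (95% interval -0.38 to 0.38). Farsb, the beta subunit, had 106, 97.6 and 80.9 CPM against 122, 91.5 and 107 CPM, and 0.17 ± 0.15 (95% interval -0.13 to 0.48). Neither subunit separated the groups. The intervals of Vars, Hars, Farsa and Farsb all include 0.33, the value of Lars, and none reaches 0.61, that of Mars.

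**Figure D3:**
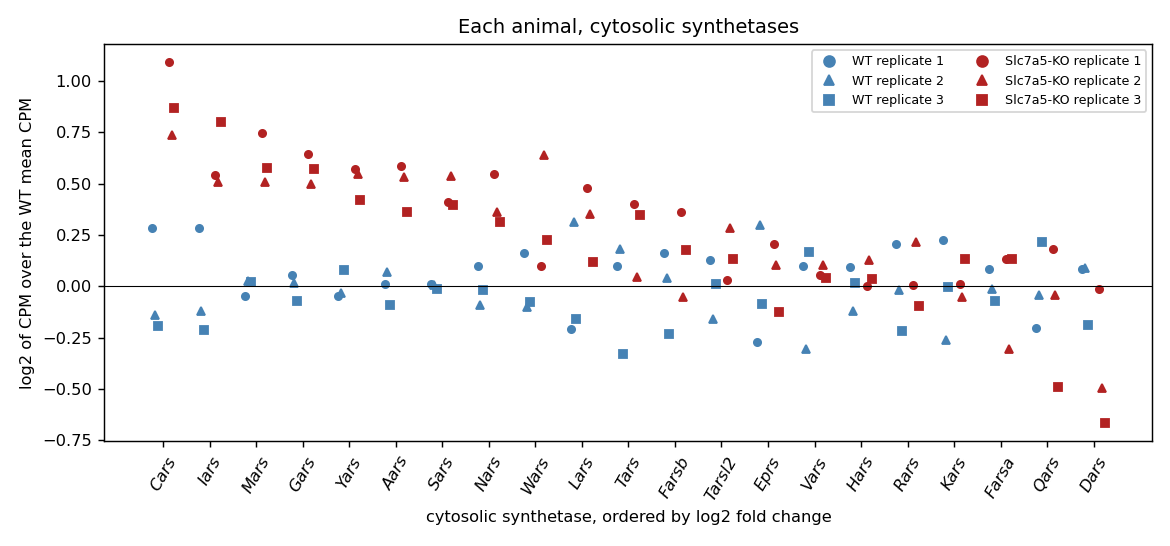
Each animal's level of the 21 cytosolic synthetases, as log2 of CPM over the WT mean CPM, ordered by log2 fold change, WT blue and Slc7a5-KO red, shapes for replicates. From Cars to Nars, the 8 genes at the left, all red points lie above all blue points, and further right the groups overlap.

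Cytosolic enzymes were next divided by whether LAT1 carries the amino acid. The 9 enzymes of LAT1 amino acids had a median log2 fold change of 0.33, with 8 above 0 and 3 whose groups did not overlap. The 12 enzymes of other amino acids had a median of 0.21, with 10 above 0 and 5 whose groups did not overlap. All 8 that did not overlap were higher in the libraries labelled Slc7a5-KO, where 5.93% of all genes were, and 50.3% of all genes were above 0. The mean level of the LAT1 enzymes minus that of the others (in log2 CPM, each gene centred on its mean over the 6 animals) was -0.02, -0.06 and 0.00090 in WT. Corresponding values were -0.04, 0.01 and 0.11 in the libraries labelled Slc7a5-KO, so the groups overlapped. No test was made on these means, because the genes were chosen with earlier results of these libraries known.

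The ATF4 list split the same enzymes further apart. All 12 ATF4-listed synthetases (Aars, Cars, Eprs, Gars, Iars, Lars, Mars, Nars, Sars, Tars, Wars, Yars) were above 0, with a median log2 fold change of 0.47, and 9 of them had an unadjusted edgeR p under 0.05 as higher, where 3.45% of all genes did. The other 9 cytosolic synthetases (Vars, Farsa, Farsb, Hars, Dars, Kars, Qars, Rars, Tarsl2) had a median of 0.05, and the 1 with such a p, Dars, was lower. 8 of the 12 listed genes separated the groups, all higher, where 5.93% of all genes did. Of the other 9, 0 did so, which is near the share over all genes. The split held on both sides of the LAT1 division. Listed genes had a median of 0.51 over 5 LAT1 amino acid enzymes and 0.45 over 7 others, and unlisted genes had 0.06 over 4 and 0.03 over 5. The list is general knowledge of the field and was written down with earlier results of these libraries known, so its split describes these data and is no independent evidence.

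The mean centred log2 CPM of the 12 listed genes was -0.19, -0.19 and -0.32 in WT replicates 1 to 3 and 0.30, 0.22 and 0.18 in the libraries labelled Slc7a5-KO. For the 9 unlisted cytosolic genes it was 0.10, -0.08 and -0.03 against 0.09, -0.02 and -0.06. The listed genes thus stood apart in every animal and the unlisted ones did not. Leaving out any 1 library gave medians of 0.44 to 0.51 for the listed genes and -0.0060 to 0.12 for the unlisted ones.

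**Figure D4:**
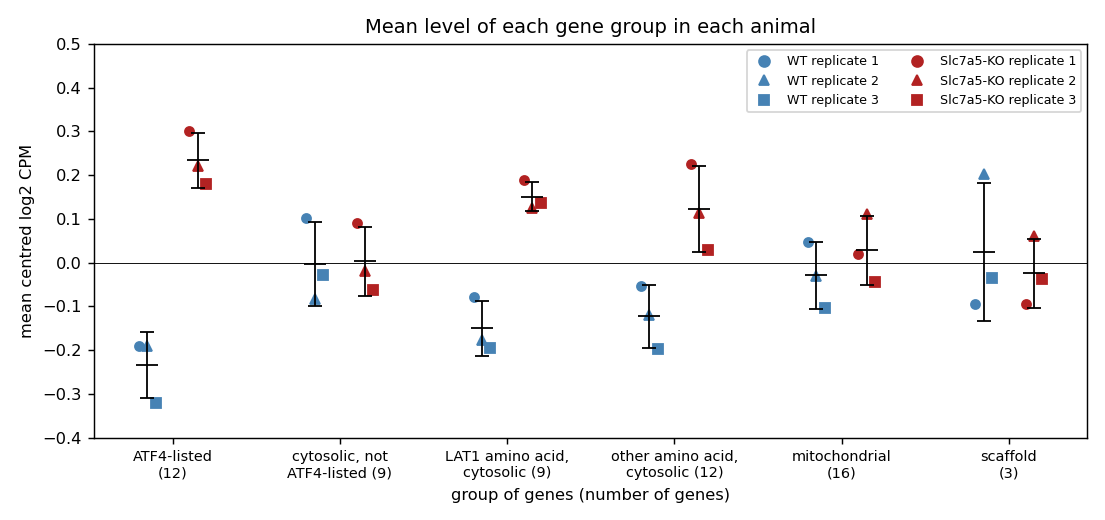
Mean centred log2 CPM of 6 groups of genes in each animal, WT blue and Slc7a5-KO red, with black marks for the mean and SD of 3 animals. The ATF4-listed group runs from -0.32 to -0.19 in WT and from 0.18 to 0.30 in Slc7a5-KO, while the unlisted, mitochondrial and scaffold groups overlap.

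3 of the 12 listed genes had no p under 0.05. Besides Lars these were Tars, the threonine enzyme, at 0.27 ± 0.16, and Eprs, the joint enzyme of glutamate and proline, at 0.07 ± 0.16 (95% interval -0.26 to 0.40). The Tars groups overlapped, with 65.7, 69.7 and 48.9 CPM against 81.2, 63.4 and 78.1 CPM, although its window holds the ATF4 core printed above. Its cytosolic relative Tarsl2 had 0.15 ± 0.17.

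Dars, the aspartate enzyme, was the only cytosolic member with lower values at an unadjusted edgeR p under 0.05. It had 71.0, 71.4 and 58.7 CPM in WT, against 66.4, 47.5 and 42.2 CPM under the Slc7a5-KO label. Slc7a5-KO replicate 1 fell inside the WT range. Its log2 value was -0.36 ± 0.17 at an edgeR adjusted p of 0.79, and it lay between -0.58 and -0.23 when 1 library was left out. Qars, the glutamine enzyme, had -0.09 ± 0.20, and Rars, the arginine enzyme, 0.05 ± 0.17.

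Genes of the multisynthetase complex stood on both sides of 0. Its 8 synthetases (Dars, Eprs, Iars, Kars, Lars, Mars, Qars, Rars) and 3 scaffold genes had a median log2 fold change of 0.03, with 7 above 0 and 4 below. Iars and Mars were the members with an unadjusted edgeR p under 0.05 on the higher side and Dars on the lower. Of all genes, 3.45% were higher and 2.77% lower at that p. Aimp1, a scaffold that also binds tRNA, had 13.4, 18.2 and 13.1 CPM in WT, against 14.1, 15.9 and 14.9 CPM under the Slc7a5-KO label. Aimp2, which holds the complex together, had 45.9, 48.9 and 49.3 CPM against 38.5, 54.6 and 46.1 CPM. Eef1e1, the smallest scaffold, had 52.6, 67.2 and 56.4 CPM against 59.1, 51.3 and 53.1 CPM. The groups overlapped for all 3, with log2 fold changes of 0.0076 ± 0.23, -0.05 ± 0.16 and -0.11 ± 0.15 (edgeR adjusted p of 0.97 to 1.0).

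The mitochondrial synthetases, encoded by separate nuclear genes, had a median log2 fold change of 0.06, with 8 of 16 above 0 and 8 below. At an unadjusted edgeR p under 0.05, 1 of the 16 was higher and 0 lower. This count is near the shares over all genes, 3.45% higher and 2.77% lower. The higher gene was Cars2, the mitochondrial cysteine enzyme. It had 11.4, 9.67 and 11.2 CPM in WT, against 11.8, 18.4 and 22.2 CPM under the Slc7a5-KO label. The groups did not overlap, but Slc7a5-KO replicate 1 lay just above the WT values. Its log2 fold change was 0.69 ± 0.25 (95% interval 0.16 to 1.22, edgeR adjusted p = 0.67). Both cysteine enzymes thus had the highest value of their class.

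Another 4 mitochondrial genes separated the groups, all higher in the libraries labelled Slc7a5-KO. With Cars2 that is 5 of 16, where 5.93% of all genes separated as higher and 5.54% as lower. The 4 were Sars2 (0.37 ± 0.22), Yars2 (0.32 ± 0.26), Tars2 (0.30 ± 0.19) and Aars2 (0.22 ± 0.20), with edgeR adjusted p of 0.86 to 0.94. The lowest values were those of Hars2 (-0.40 ± 0.28), Nars2 (-0.37 ± 0.32), Mars2 (-0.29 ± 0.20), Vars2 (-0.20 ± 0.21) and Rars2 (-0.20 ± 0.40), none past a test. Near 0 or with wide errors were Ears2 (0.26 ± 0.36), Pars2 (0.16 ± 0.37), Fars2 (-0.08 ± 0.24), Wars2 (-0.05 ± 0.31) and Iars2 (-0.01 ± 0.18). Lars2, the abundant one, had 261, 322 and 279 CPM in WT, against 247, 430 and 265 CPM under the Slc7a5-KO label. Slc7a5-KO replicate 2 was its high value, and without that library the log2 fold change was -0.17 in place of 0.13. The 8 mitochondrial enzymes of LAT1 amino acids had a median of -0.07 and the 8 others 0.24, and this difference was not tested.

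Set side by side by amino acid, the cytosolic gene had the higher log2 fold change in 14 of 17 pairs, where Farsa and Farsb share Fars2, and Eprs is paired with Ears2 and with Pars2. The widest gaps were those of methionine (Mars 0.61, Mars2 -0.29), asparagine (Nars 0.41, Nars2 -0.37) and isoleucine (Iars 0.62, Iars2 -0.01). Among pairs with the cytosolic gene higher, the gap was smallest for serine (Sars 0.45, Sars2 0.37). In 3 pairs the mitochondrial gene was the higher: threonine (Tars 0.27, Tars2 0.30) and both pairs of Eprs. Mitochondrial genes have fewer reads and wider errors, and the differences within pairs were not tested.

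**Figure D5:**
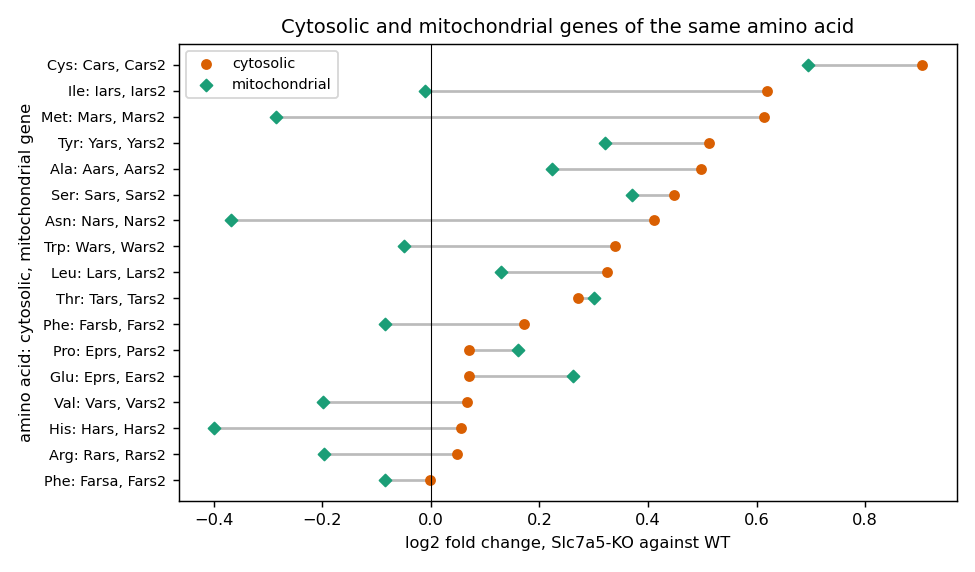
Log2 fold change of the cytosolic gene (circle) and the mitochondrial gene (diamond) for each of 17 pairs, joined by a line and ordered by the cytosolic value. The circle lies to the right of the diamond in 14 pairs, the exceptions being threonine and the 2 pairs of Eprs.

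Other genes that act on tRNA charging were measured beside the synthetases. Of 16 such partner genes, 15 were tested, with a median log2 fold change of 0.06, 8 above 0 and 7 below, and none past the false discovery rate by edgeR. At an unadjusted edgeR p under 0.05, 3.45% of all genes were higher and 2.77% lower. Of the 15 partners 1 was higher and 0 lower, a count near those shares. The higher gene was Gatc, a subunit of the mitochondrial enzyme that makes glutaminyl-tRNA. It had 36.9, 42.2 and 38.4 CPM in WT, against 52.5, 53.5 and 62.5 CPM under the Slc7a5-KO label (log2 0.52 ± 0.15, edgeR adjusted p = 0.47). Xpot, the tRNA exporter, named after its value was seen, had 0.13 ± 0.13.

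The kinase that senses uncharged tRNA and the factor it raises were measured as well. Eif2ak4, which encodes GCN2, had a log2 fold change of -0.09 ± 0.20. Atf4 had 376, 407 and 367 CPM in WT, against 543, 542 and 457 CPM under the Slc7a5-KO label. The Atf4 groups did not overlap, and its log2 fold change was 0.42 ± 0.13 (edgeR adjusted p = 0.53). A list of 26 ATF4 targets that are no synthetases had a median of 0.75, all 26 above 0, where 50.3% of all genes were. Of the 26, 5 passed the false discovery rate by edgeR as higher (Atf5, Chac1, Slc7a1, Slc1a4 and Shmt2), where 0.0475% of all genes did. This list too was written down with earlier results of these libraries known, so it is no independent evidence. The median of the listed synthetases, 0.47, was below that of these targets.

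Markers of some cell types lay to one side of 0 in the same libraries, where 50.3% of all genes were above 0. The 10 Purkinje markers were all below 0 (median log2 fold change -0.47), with a summed level of 5954 to 7226 CPM in WT and 4171 to 6082 CPM in the libraries labelled Slc7a5-KO. Of the 10 microglia markers 9 were above 0 (median 0.27), with sums of 319 to 407 CPM against 396 to 458 CPM. Of the 10 granule neuron markers 9 were below 0 (median -0.17), with sums of 3942 to 5769 CPM against 3292 to 5203 CPM. Of the 10 astrocyte and Bergmann glia markers 7 were below 0 (median -0.14), and their sums did not overlap, at 5614 to 5801 CPM against 5030 to 5138 CPM. Their mean centred log2 CPM did overlap, at 0.11, 0.092 and -0.051 in WT against 0.015, -0.11 and -0.054. Within this list Gfap separated the groups as higher (0.55 ± 0.14) and S100b as lower (-0.38 ± 0.13). Endothelial markers lay on both sides, 4 above 0 and 6 below (median -0.01), with sums of 509 to 528 CPM against 441 to 530 CPM. So did oligodendrocyte markers, 5 above 0 and 5 below (median -0.0095), with sums of 4247 to 6284 CPM against 4350 to 7448 CPM. The 10 choroid plexus markers were all below 0 (median -0.73), with sums of 2591 to 5790 CPM against 46.7 to 4921 CPM. The lowest of these, at a mean centred log2 CPM of -3.41, was Slc7a5-KO replicate 2, and without that library the median of the listed synthetases was 0.45. None of the markers in these lists was at 0 in any library. In whole tissue, fewer cells of a type and less RNA per cell cannot be told apart, and the part of cell composition in the synthetase values was not tested.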

How the data were processed

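The authors deposited 1 table of read counts per gene for each of 6 libraries, and STAR 2.5.4 with GRCm38 (mm10) is named in the submitters' processing notes. Per the labels' protocols, the SENSE kit of Lexogen (V2) was used on total RNA, and each library is a separate mouse. Counts of the reverse strand, which held 94.8% to 95.8% of gene reads, were used. Multimapping reads are listed as 0, and reads in no gene or several were 19.5% to 22.2% of aligned reads and stayed out. No source used here states the annotation release. The authors' deposited table of their own comparison (DESeq2 1.10.1, per the submitters' processing notes) gives, per the file headers, a mean normalised signal, log2 fold changes, a Wald score and p-values.

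Symbols were matched for 46488 of 46983 identifiers. After filterByExpr (minimum count 10, minimum total 15), 16851 genes were scaled by TMM and tested 2-sided with edgeR 4.0.16 (quasi-likelihood, robust, R 4.3.3), with Benjamini-Hochberg adjustment over all genes. The script was checked on simulated data. CPM are TMM-scaled, log2 CPM used a prior count of 2, and values after ± are standard errors of log2 fold changes. Levels per kb use the GENCODE M21 transcript with the longest coding sequence. The biological coefficient of variation was 31.6%. Alternatives were DESeq2 1.42.0, limma-voom (limma 3.58.1), other scalings, no filter, unstranded counts, a replicate block, a sex term, and leaving out each library.

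All 40 members are named. Full values are given for those at an unadjusted edgeR p under 0.05 or called in the authors' deposited table, for cytosolic enzymes of LAT1 amino acids and for scaffold genes. Of the partner and sensing genes, those at such a p are named, with Eif2ak4 and Atf4, and 1 gene and 1 sequence are not reported here. The members and lists were chosen with earlier results of these data known.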

Additional observations from a re-analysis of the deposited data

How the results depend on the processing

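The count of members past the false discovery rate was 0 by edgeR, also with DESeq2 size factors, library size alone, unstranded counts, the replicate block or a sex term. It was 6 by DESeq2, 1 by limma-voom and 2 without a filter on low counts (Cars and Gars), and 0 to 1 when 1 library was left out, the 1 being Cars without Slc7a5-KO replicate 2. Of all genes, in either direction, 0.339% passed by DESeq2, 0.0593% by limma-voom and 0.289% without the filter. Without Slc7a5-KO replicate 2 the share was 0.114%, against 0.0475% in the main edgeR fit. The causes were not tested. Leaving out 1 library gave 9 to 11 members at an unadjusted p under 0.05 as higher, where 2.03% to 4.31% of all genes were, and 0 to 2 as lower, where 1.72% to 4.13% were. Groups then did not overlap for 13 to 16 members as higher, where 9.62% to 12.7% of all genes were, and for 0 to 4 as lower, where 8.94% to 12.6% were. The 4 lower came without WT replicate 3. The cytosolic median ran from 0.16 (without WT replicate 3) to 0.29. That of the LAT1 amino acid enzymes ran from 0.24 to 0.39 and that of the other cytosolic enzymes from 0.14 to 0.31. The order of these medians was not steady. Without WT replicate 1 the LAT1 median was 0.26 and the other 0.27, and without WT replicate 2 they were 0.29 and 0.31. With a sex term the LAT1 median was 0.27. The mitochondrial median ran from 0.0024 (without Slc7a5-KO replicate 1) to 0.13 (without Slc7a5-KO replicate 3). That of the unlisted cytosolic genes ran from -0.0060 (WT replicate 2 left out) to 0.12 (WT replicate 1 left out).

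Signs turned for genes whose log2 fold change lay between -0.20 (Rars2) and 0.16 (Pars2). The log2 fold change of Iars2 was 0.025 by limma-voom, 0.012 by library size alone, 0.025 by unstranded counts and 0.091 with a sex term. The log2 fold change of Rars2 was 0.055 by limma-voom, that of Farsa 0.032 by library size alone and 0.00011 by unstranded counts, and that of Aimp1 -0.032 with a sex term. Leaving out 1 library turned the sign of 14 genes. Their log2 fold changes then ran from -0.062 to 0.15 for Vars, -0.074 to 0.13 for Farsa, -0.049 to 0.25 for Eprs, -0.082 to 0.16 for Kars, -0.24 to 0.078 for Qars, -0.052 to 0.17 for Rars, -0.17 to 0.28 for Lars2 and -0.15 to 0.11 for Iars2. They ran from -0.30 to 0.13 for Wars2, -0.042 to 0.37 for Pars2, -0.49 to 0.45 for Rars2, -0.080 to 0.18 for Aimp1, -0.19 to 0.070 for Aimp2 and -0.18 to 0.0026 for Eef1e1.

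Replicate numbers gave no sign of pairing over all genes. The correlations of deviations between same-numbered libraries were -0.04, -0.06 and -0.03, and those between differently numbered libraries ran from -0.03 to 0.07. These values cannot exclude a pairing that moves few genes. With the replicate block, 9 members were higher at an unadjusted edgeR p under 0.05, where 3.19% of all genes were, and 1 was lower, where 2.59% were. With that block 6 of all genes passed the false discovery rate, against 8 without it.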
